A study of Mus musculus with 6 samples.

Results

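The 10 genes described here, Pecam1, Kdr, Emcn, Flt1, Egfl7, Esam, Cldn5, Sox17, Sox18 and Eng, mark the endothelium, the cell layer that lines blood vessels. They were chosen by name from the 21898 genes of the deposited count table. All 10 were found there, each once, and all 10 were among the 14736 genes with enough counts to be tested. The libraries came from fetal mouse ovaries of wild-type genotype, taken at 14.5 days post coitum and kept for 3 days in 1 ml of serum-free medium. The 3 control libraries were from ovaries given ethyl acetate, and the 3 others from ovaries given 15 µM NAPQI, the reactive metabolite of acetaminophen. Whole ovaries were used in both groups and no blood flow reaches vessels in such a culture. The labels do not say whether libraries of a group were grown apart or came from different litters, and p-values reflect library-to-library spread that could be technical.

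The fetal ovary is colonised by vessels early, and its endothelial cells are a minority beside germ cells, pregranulosa cells and stroma. Vascular endothelial growth factor (VEGF) from the tissue acts on the receptor KDR, while FLT1 binds the same ligand with high affinity and signals less. Junction proteins such as claudin 5, ESAM and PECAM1 seal and hold the vessel wall, and transcription factors of the SOXF group (Sox7, Sox17 and Sox18) set endothelial and arterial fate. Several members are also made outside endothelium, for example Pecam1 and Esam in platelets and Eng in stromal and myeloid cells. In RNA of a whole organ, fewer endothelial cells and less RNA per cell cannot be told apart.

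Promoter windows of RefSeq (GRCm38.p6) were found by symbol for 6 of the 10 genes, Egfl7, Eng, Emcn, Kdr, Flt1 and Cldn5, in 8 windows. The 250 bases before the start are shown for Kdr, the member whose level varied least between libraries, and for Flt1 and Cldn5, the members lowest and highest per length. Capitals mark GGAAG on either strand, a form of the shorter GGAA core bound by ETS factors, which act widely in endothelial promoters. GGAA followed by another letter is not marked, so the capitals do not show every such core. Kdr is shown at chr5:75978456-75978705 (minus strand), Flt1 at chr5:147726012-147726261 (minus strand) and Cldn5 at chr16:18776597-18776846 (plus strand).
Kdr: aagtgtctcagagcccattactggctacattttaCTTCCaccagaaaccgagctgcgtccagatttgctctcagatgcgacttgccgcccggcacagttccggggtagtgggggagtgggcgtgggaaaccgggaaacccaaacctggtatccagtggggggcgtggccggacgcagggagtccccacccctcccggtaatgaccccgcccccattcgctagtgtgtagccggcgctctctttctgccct
Flt1: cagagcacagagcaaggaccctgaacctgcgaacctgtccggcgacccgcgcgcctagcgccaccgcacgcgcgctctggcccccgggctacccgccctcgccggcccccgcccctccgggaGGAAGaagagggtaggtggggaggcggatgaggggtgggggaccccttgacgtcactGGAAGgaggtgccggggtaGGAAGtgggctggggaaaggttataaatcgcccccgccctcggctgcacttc
Cldn5: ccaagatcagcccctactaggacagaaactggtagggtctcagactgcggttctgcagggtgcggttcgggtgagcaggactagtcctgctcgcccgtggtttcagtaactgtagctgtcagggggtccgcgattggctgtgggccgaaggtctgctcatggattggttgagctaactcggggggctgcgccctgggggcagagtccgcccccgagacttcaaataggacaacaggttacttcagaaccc

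GGAAG occurred 1 time in the Kdr window, 3 times in the Flt1 window and 0 times in the Cldn5 window. It was present in 6 of the 8 windows of members, beside 64.1% of 32851 windows of all genes. Several of the 8 windows belong to Egfl7, so windows are not separate genes. The longer form CAGGAA, which can overlap GGAAG, was in 3 of 8 windows (25.7% of all), all of them of Egfl7 or Emcn. ACAAT of SOX factors was in 1 of 8 (27.7% of all), and AGATAA of GATA factors in 0 of 8 (9.99% of all). Each was searched on both strands. These matches are a description of the letters. A further sequence of interest lies in Egfl7, whose introns host the endothelial microRNA miR-126. The mature form lies at chr2:26591402-26591423 (GRCm38.p6, plus strand), in an intron of 8 of the 9 annotated Egfl7 transcripts that span it, with the seed (bases 2 to 8) in capitals. MicroRNAs were not measured by these libraries.
mmu-miR-126a-3p: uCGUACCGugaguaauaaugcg

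The design sets NAPQI-treated ovaries against solvent controls, and none of the 10 endothelial identity genes passed. By the quasi-likelihood test of edgeR, 0 of 10 had an adjusted p under 0.05, beside 0.0814% of all tested genes (0.0746% higher and 0.00679% lower with NAPQI), and the adjusted p ran from 0.422 to 0.928. DESeq2 and limma-voom also called 0, and 1 member, Sox18, had an unadjusted p under 0.05 (9.24% of all tested genes had one, 4.21% in the higher direction). The log2 fold change was positive for 4 members and negative for 6, with a median of -0.06 beside -0.01 over all tested genes. None of the 10 had an adjusted p under 0.05 in the authors' deposited table either, the smallest being 0.558, while 1 had an unadjusted p under 0.05.

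Summed over the 10 genes, the level was 216, 174 and 248 CPM (counts relative to library size, scaled by TMM) in control replicates 1, 2 and 3. It was 242, 206 and 194 CPM in NAPQI replicates 1, 2 and 3. The groups overlapped, and the lowest and the highest library were both controls. The means were 213 ± 37.5 CPM in controls and 214 ± 24.8 CPM with NAPQI (SD, n = 3), a ratio of 1.01.

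**Figure D1:**
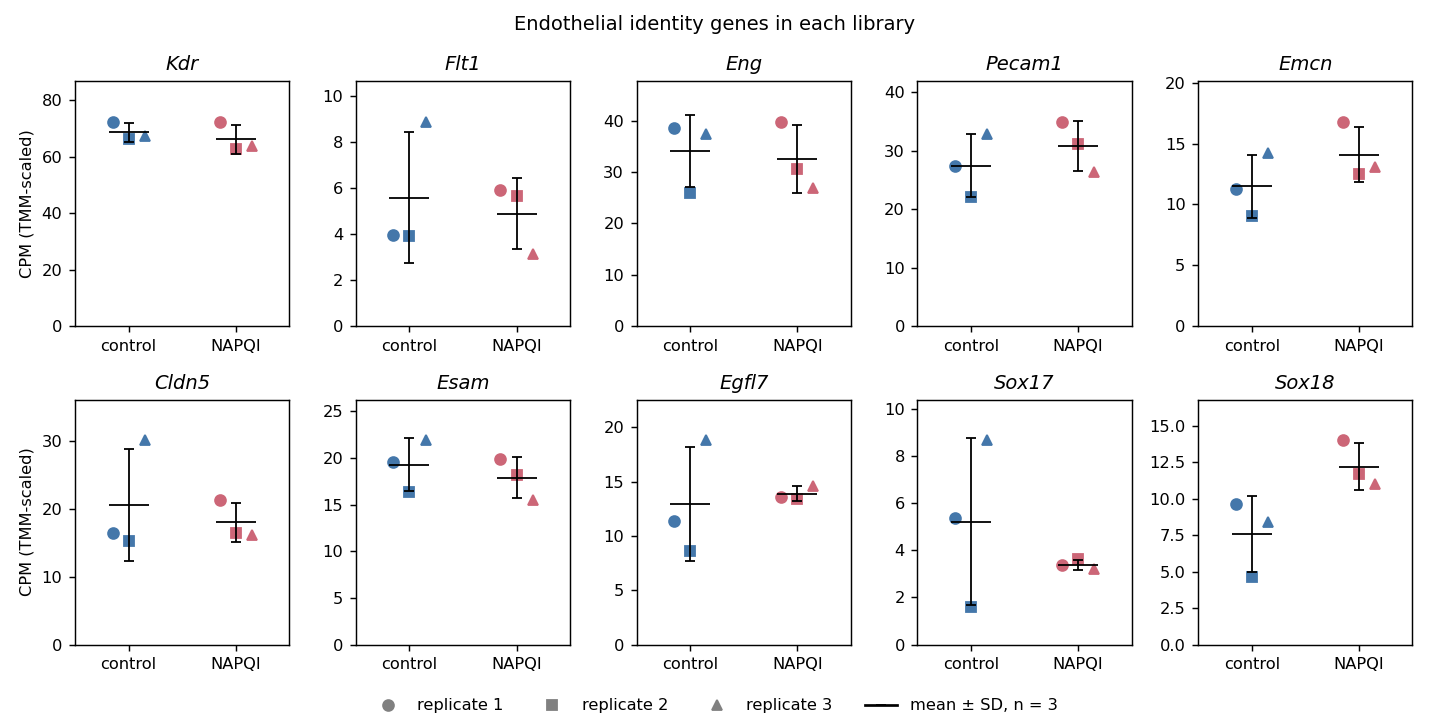
Level of each of the 10 genes in each library, in TMM-scaled CPM on linear axes from 0; symbols give the replicate number, and the black bar and whiskers the mean ± SD of 3 libraries. Only for Sox18 do the 3 NAPQI libraries (11 to 14 CPM) all lie above the 3 controls (4.66 to 9.64 CPM).

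Per length, the members had widely different levels. Cldn5 had the highest level, 13.6 ± 3.82 FPKM (reads per kilobase of gene length, scaled to the counted reads of each library; mean and SD of 6 libraries), and held the first rank in every library. Eng at 8.21 ± 1.49 FPKM, Kdr at 7.46 ± 0.438 FPKM and Esam at 6.47 ± 0.771 FPKM followed. Within single libraries, Eng and Kdr held ranks 2 to 4 and Esam ranks 3 to 5. Sox18 at 6.12 ± 2.02 FPKM and Pecam1 at 4.67 ± 0.746 FPKM lay within reach of each other, and Sox18 ranged from the third to the seventh place between libraries. Egfl7 stood at 3.74 ± 0.913 FPKM and Emcn at 2.37 ± 0.485 FPKM, eighth in each library. Sox17 at 0.894 ± 0.497 FPKM and Flt1 at 0.386 ± 0.148 FPKM were the lowest, in that order in each library. The order of the means was the same in TPM for all 10.

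**Figure D2:**
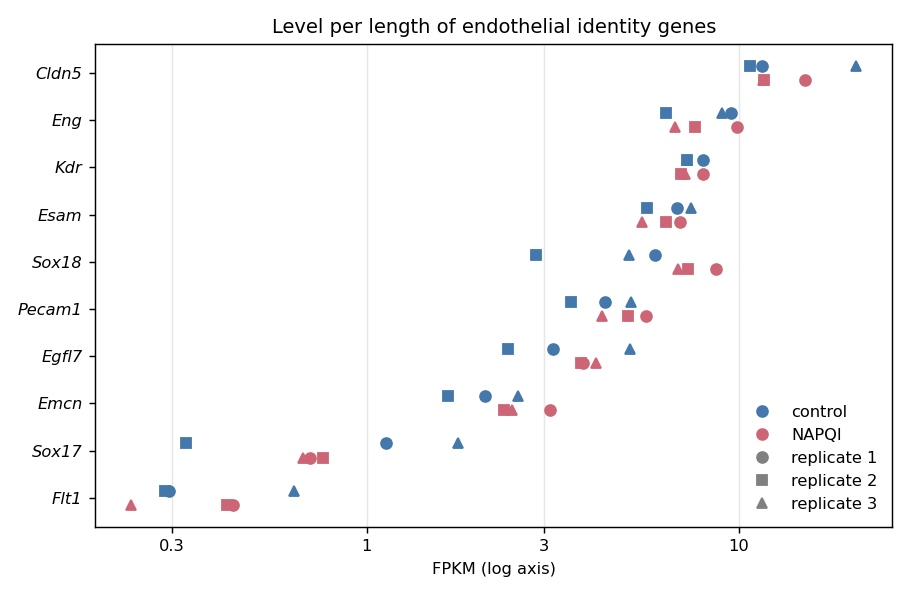
Level per length (FPKM, logarithmic axis) of the 10 genes in the 3 control (blue) and 3 NAPQI (red) libraries, ordered by mean; symbols give the replicate number. Cldn5 leads in each library, Flt1 is lowest, and Kdr has the narrowest range (7 to 8.01 FPKM).

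Kdr, the main signalling receptor for VEGF, lies at chr5:76093487-76139118 (minus strand, ENSMUSG00000062960; GRCm39, as in the deposited table, here and for the members that follow). It stood at 72.3, 66.2 and 67.2 CPM in control replicates 1, 2 and 3 and at 72.1, 62.6 and 63.9 CPM in NAPQI replicates 1, 2 and 3. The highest of the 6 libraries was 1.16 times the lowest, and the groups overlapped. Between the groups, the log2 difference of Kdr was -0.05 ± 0.10 (SE; edgeR adjusted p = 0.894), with a 95% interval of 0.836- to 1.11-fold. Kdr had the narrowest interval of the members, 0.42 wide on the log2 scale.

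Flt1, the VEGF receptor that also yields a soluble decoy form, lies at chr5:147498414-147662821 (minus strand, ENSMUSG00000029648). Gene counts do not separate its soluble and membrane forms. It stood at 3.97, 3.90 and 8.87 CPM in control replicates 1, 2 and 3 and at 5.90, 5.63 and 3.11 CPM in NAPQI replicates 1, 2 and 3. Control replicate 3 was the highest library and NAPQI replicate 3 the lowest. The log2 fold change was -0.18 ± 0.36 (edgeR adjusted p = 0.903), with an interval of 0.519- to 1.51-fold. Without control replicate 3 its sign turned, to 0.31. Per length, Kdr exceeded Flt1 by 11.3-fold in control replicate 3, by 25.4- and 27.2-fold in the other controls, and by 16.6- to 30.7-fold with NAPQI, so that the groups overlapped.

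Eng encodes endoglin, the co-receptor of BMP and TGF-beta ligands on endothelium, and lies at chr2:32536607-32572681 (plus strand, ENSMUSG00000026814). It stood at 38.7, 26.0 and 37.5 CPM in control replicates 1, 2 and 3 and at 39.8, 30.6 and 27.0 CPM in NAPQI replicates 1, 2 and 3. Each group held high and low libraries, and its log2 fold change was -0.07 ± 0.17 (edgeR adjusted p = 0.928). The interval was 0.736- to 1.24-fold. The span of Eng overlaps Fpgs on the other strand, and no source here says if strand entered the counting.

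Among the surface and junction genes, Pecam1 (CD31) is the adhesion molecule of endothelial contacts. It lies at chr11:106545043-106641454 (minus strand, ENSMUSG00000020717). It stood at 27.3, 22.1 and 32.8 CPM in control replicates 1, 2 and 3 and at 34.9, 31.2 and 26.4 CPM in NAPQI replicates 1, 2 and 3. The groups overlapped, the highest library being NAPQI replicate 1, and the difference was 0.17 ± 0.16 on the log2 scale (edgeR adjusted p = 0.752). Emcn, the endothelial sialomucin of capillaries and veins, lies at chr3:137046828-137137946 (plus strand, ENSMUSG00000054690). It stood at 11.3, 9.03 and 14.2 CPM in controls 1, 2 and 3 and at 16.8, 12.5 and 13.1 CPM with NAPQI. Only control replicate 3 overlapped the NAPQI libraries. For Emcn the log2 fold change was 0.30 ± 0.20 (edgeR adjusted p = 0.645), with an interval of 0.917- to 1.66-fold.

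Cldn5 encodes the tight junction protein claudin 5 and lies at chr16:18595597-18597012 (plus strand, ENSMUSG00000041378). It stood at 16.4, 15.3 and 30.1 CPM in control replicates 1, 2 and 3 and at 21.3, 16.4 and 16.2 CPM in NAPQI replicates 1, 2 and 3. Control replicate 3 was far above the 5 other libraries. For Cldn5 the log2 fold change was -0.19 ± 0.23 (edgeR adjusted p = 0.828), and it was 0.19 without control replicate 3. Esam, an immunoglobulin-type adhesion molecule of endothelial junctions, lies at chr9:37439374-37449615 (plus strand, ENSMUSG00000001946). It stood at 19.6, 16.4 and 21.9 CPM in controls 1, 2 and 3 and at 19.9, 18.2 and 15.5 CPM with NAPQI. The groups overlapped, and the difference was -0.11 ± 0.16 on the log2 scale (edgeR adjusted p = 0.853) and an interval of 0.732- to 1.17-fold.

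Egfl7, a secreted matrix protein of growing vessels, lies at chr2:26470026-26483132 (plus strand, ENSMUSG00000026921). It stood at 11.4, 8.62 and 18.8 CPM in control replicates 1, 2 and 3 and at 13.6, 13.4 and 14.6 CPM in NAPQI replicates 1, 2 and 3. The NAPQI libraries lay close together, between the lower controls and control replicate 3. For Egfl7 the log2 fold change was 0.11 ± 0.24 (edgeR adjusted p = 0.911). It was 0.47 without control replicate 3 and -0.10 without control replicate 2. Egfl7 overlaps Agpat2 on the other strand, so its counts may include reads of that gene.

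The remaining members are SOXF transcription factors. Sox18, in which mutations disturb lymphatic and vessel development in mice, lies at chr2:181311629-181313433 (minus strand, ENSMUSG00000046470). It stood at 9.64, 4.66 and 8.42 CPM in control replicates 1, 2 and 3 and at 14, 11.7 and 11 CPM in NAPQI replicates 1, 2 and 3. All 3 NAPQI libraries lay above all controls, the only such member, where 14.4% of all tested genes had groups that did not overlap (7.26% higher and 7.13% lower with NAPQI). The log2 fold change was 0.70 ± 0.25 with an interval of 1.12- to 2.35-fold before adjustment (unadjusted p = 0.015, and edgeR adjusted p = 0.422). It did not pass in any of the 15 alternatives; the adjusted p was 0.25 by DESeq2, and the log2 fold change was 0.44 without control replicate 2 and 0.92 without control replicate 1.

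Sox17, a SOXF factor of arterial endothelium, lies at chr1:4561154-4567577 (minus strand, ENSMUSG00000025902). It stood at 5.38, 1.57 and 8.65 CPM in control replicates 1, 2 and 3 and at 3.35, 3.61 and 3.18 CPM in NAPQI replicates 1, 2 and 3. The controls spanned 5.5-fold, on 92, 27 and 117 reads, and the NAPQI libraries only 1.13-fold, on 54, 57 and 46 reads. The log2 fold change was -0.61 ± 0.45 (edgeR adjusted p = 0.685), with the widest interval of the members, 0.334- to 1.29-fold. It was -0.04 without control replicate 3 and -1.04 without control replicate 2 (edgeR adjusted p = 0.137). Sox7, the third SOXF gene, stood at 10.2, 9.26 and 6.36 CPM in controls and at 12.8, 14.4 and 10.8 CPM with NAPQI, again without overlap, a difference of 0.55 ± 0.21 on the log2 scale (edgeR adjusted p = 0.447). The ratio of Sox18 to Sox17 CPM, looked at after these values were seen, was 1.79, 2.96 and 0.974 in control replicates 1, 2 and 3 and 4.19, 3.25 and 3.46 in NAPQI replicates 1, 2 and 3, so that its groups did not overlap either. This ratio was not tested, and it contains Sox18, whose own groups did not overlap, so it is not a separate observation. The ratio of Sox7 to Sox17 overlapped, at 0.735 to 5.89 in controls and 3.39 to 3.98 with NAPQI. So did Cldn5 to Esam, at 0.833 to 1.37 in controls and 0.902 to 1.07 with NAPQI. Pecam1 to Eng overlapped as well, at 0.706 to 0.876 and 0.875 to 1.02.

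**Figure D3:**
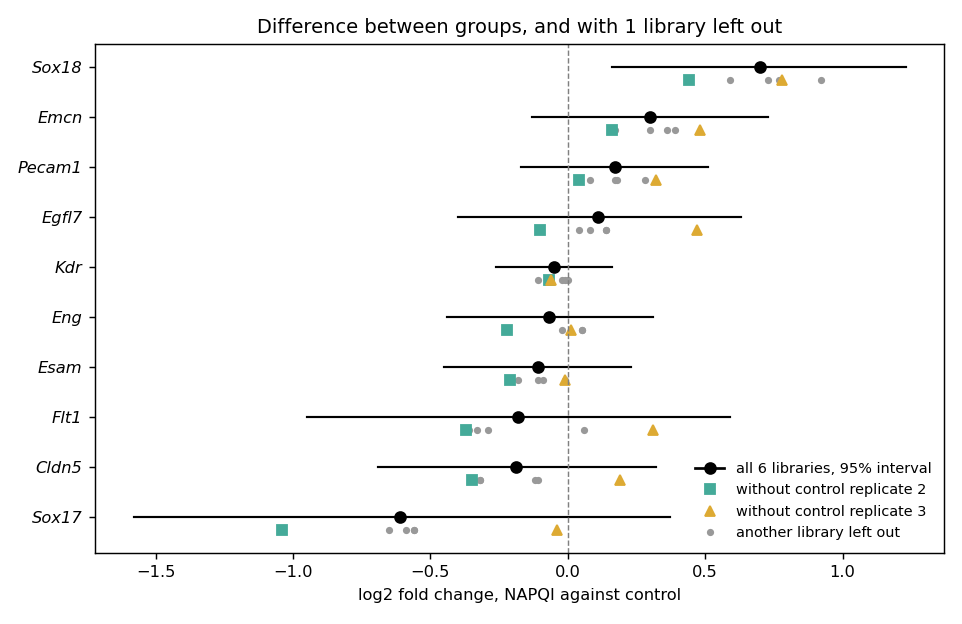
Log2 fold change of each of the 10 genes (NAPQI against control) with its 95% interval from edgeR (black), and the same with 1 library left out (coloured or grey symbols beneath). Only the Sox18 interval (0.16 to 1.23, unadjusted) lies off 0, and leaving out control replicate 2 or 3 moves most genes to opposite sides of the value with all 6.

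The members moved together between libraries of a group. Among the controls, replicate 2 was lowest for all 10 genes and replicate 3 highest for 7. For Kdr (66.2 CPM, against 67.2 CPM in replicate 3) and Flt1 (3.90 CPM, against 3.97 CPM in replicate 1) replicate 2 was lowest by little. The share of all tested genes with this order was not computed. Among the NAPQI libraries replicate 1 was highest for 8. Over the 6 libraries, 44 of the 45 pairs of members had a positive Pearson correlation of log2 CPM, with a median of 0.62. The 6 points share depth and any difference in tissue makeup, so this is a description. Pecam1 with Emcn (0.91) and Esam with Eng (0.90) were the closest pairs, and Kdr with Egfl7 (-0.10) the farthest. Kdr and Sox18 followed the others least, with a median correlation to the other members of 0.25 and 0.40, against 0.61 to 0.75 for the rest. The coefficient of variation was larger in controls than with NAPQI for 9 of the 10, Kdr being the exception, where 61.8% of all tested genes had this order. Its median over the members was 28.4% in controls and 13.4% with NAPQI, beside 12.2% and 9.45% over all tested genes, and 3 libraries give a rough estimate of it. As control replicate 2 was the lowest control for all 10, the 9 are not separate observations.

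Levels of other cell types moved between the same libraries. The 6 surface epithelium markers, all tested, summed to 562 CPM in control replicate 2, where the endothelial members were lowest, against 204 and 262 CPM in the other controls and 263 to 427 CPM with NAPQI. The sum of the 28 other endothelial genes, which is weighted to the most abundant, was 1007 CPM there, against 811 and 848 CPM in control replicates 1 and 3. It was 875 to 1033 CPM with NAPQI. Their mean log2 deviation, which weighs the genes equally, was lowest in control replicate 2, at -0.25. It was -0.04 and 0.19 in control replicates 1 and 3, and -0.15 to 0.23 with NAPQI. The 9 erythroid markers, of which 6 were tested and Hba-a2 was at 0, summed to 206 CPM in control replicate 3, where most members were high, against 30.7 and 35.9 CPM in the other controls and 22 to 71.3 CPM with NAPQI. Macrophage markers, 12 of 12 tested, summed to 144 to 185 CPM in controls and 111 to 144 CPM with NAPQI. Of 7 megakaryocyte and platelet markers 3 were tested, at 10.4 to 12.1 CPM in controls and 10.2 to 14.2 CPM with NAPQI in sum. The depth of control replicate 3 was the lowest, and it had a Spearman correlation of -0.30 across genes between gene length and its deviation from the mean of the libraries, against -0.0986 to 0.167 in the others. With this length trend removed, Cldn5 was at -0.06 and the median of the members stayed at -0.06. The part of these differences in the members' values was otherwise not tested. Depth was 13879347 to 17258609 counts per library.

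**Figure D4:**
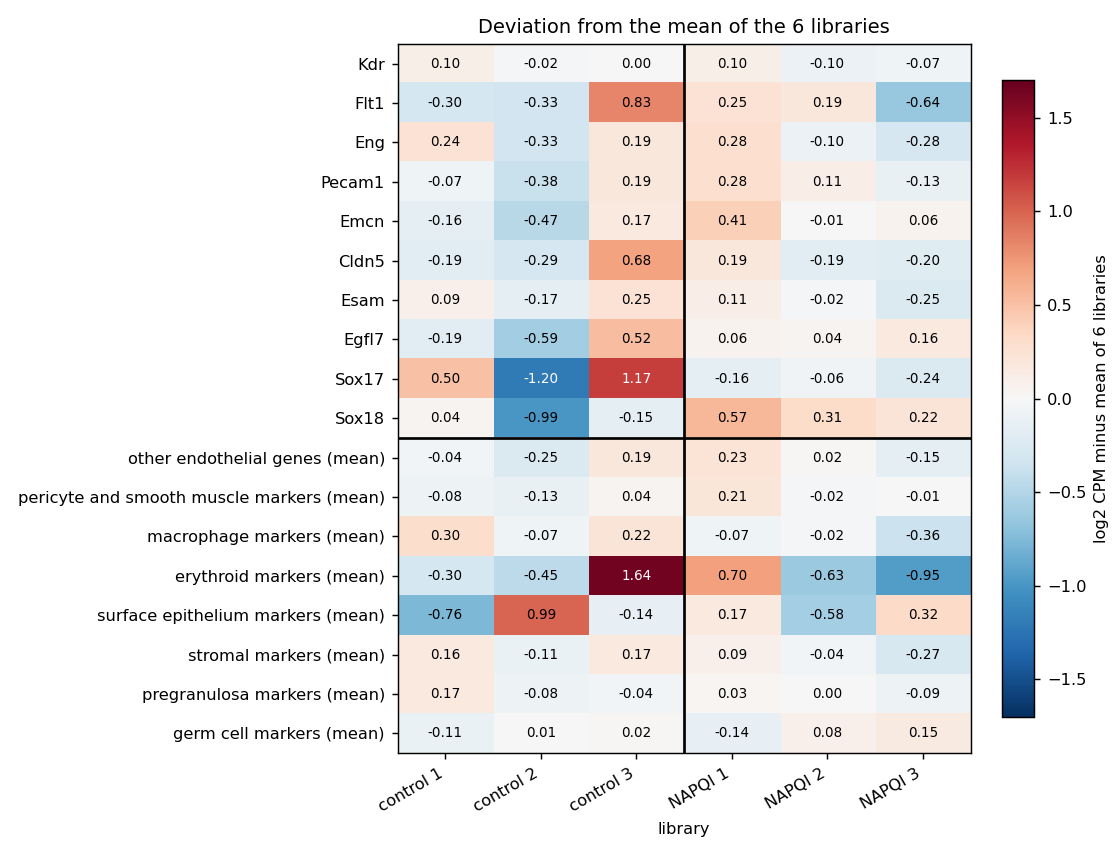
Deviation of log2 CPM from the mean of the 6 libraries, for each member (rows above the line) and as the mean over marker lists of other cells (rows below), with red higher and blue lower. Control 2 is low in nearly all members (Sox17 at -1.20) and high in surface epithelium markers (0.99), and control 3 is high in erythroid markers (1.64).

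The direction of the members as a set depended on the library left out. The median log2 fold change was 0.25, with 7 of 10 positive, without control replicate 3, and -0.16, with 7 of 10 negative, without control replicate 2, and 0 members were called in either fit. It was 0.06, with 6 of 10 positive, without NAPQI replicate 3. Without control replicate 3, Emcn and Egfl7 joined Sox18 as members whose groups did not overlap (19% of all tested genes then). Without control replicate 2, Sox17 joined it in the lower direction (32.5% of all tested genes), and without NAPQI replicate 1, Kdr did (26.9%).

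The genes whose levels were most like those of the members were sought among 14078 others with a mean of at least 1 CPM. The 5 closest to the mean standardised profile of the members over the 6 libraries, by Pearson correlation, were Gmppa (0.992), Alg1 (0.988), Aspn (0.988), Gpr146 (0.983) and Cavin2 (0.980). Each had a log2 fold change between -0.03 and 0.01. Cavin2, a coat protein of caveolae, stood at 18.4, 16.1 and 22.3 CPM in controls and at 20.9, 18.5 and 17.5 CPM with NAPQI, lowest in control replicate 2 and highest in control replicate 3. This order, and the small fold changes of the 5, follow from choosing them by likeness to the members. With 6 points, 118 genes reached 0.9. Of 28 other endothelial genes, 16 had a correlation of at least 0.5, with a median of 0.59 beside 0.01 for all genes compared.

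The list of 28 other endothelial genes was measured in full, and 1 gene was called, a rise, beside 0.0814% of all tested genes. The list was chosen with earlier results of these data known, so this count is not a test of the list. Ptprb, the receptor phosphatase of vascular endothelium, stood at 12.3, 19.7 and 13.7 CPM in controls and at 32.4, 29.1 and 32.9 CPM with NAPQI, a difference of 1.04 ± 0.17 on the log2 scale (edgeR adjusted p = 0.0489). That call held in 9 of 16 fits and ended without control replicate 1 (adjusted p = 0.0722) or 3 (0.397), without NAPQI replicate 1 (0.284) or 3 (0.21), by limma-voom (0.0562), with the replicate block (0.123) and with the length trend removed (0.0732). Its log2 fold change was 0.92 to 1.28 over the fits. In the authors' deposited table Ptprb had a log2 fold change of 1.05 and an adjusted p of 1.84e-06. The list as a whole had 16 positive and 12 negative values and a median of 0.08, beside -0.01 for all tested genes. An unadjusted edgeR p under 0.05 was found for 3 in the higher and 2 in the lower direction (9.24% of all tested genes had one). Bcl6b, a transcriptional repressor of endothelium, stood at 14.04 to 16.3 CPM in the control and 19.99 to 21.2 CPM in the NAPQI libraries (log2 fold change 0.45 ± 0.14, edgeR adjusted p = 0.357). Ramp2, the subunit of the adrenomedullin receptor, stood at 44.3 ± 10.2 CPM in the control and 31.5 ± 4.36 CPM in the NAPQI libraries, with overlap (edgeR adjusted p = 0.401), and overlaps Vps25. Lyl1, a basic helix-loop-helix factor of blood and endothelial cells, was at 0.993 to 2.22 and 0.621 to 0.691 CPM (edgeR adjusted p = 0.516) and lies across from Nfix. Cd93, a transmembrane receptor of endothelium, was at 35.3 ± 6.57 and 41.4 ± 3.26 CPM (edgeR adjusted p = 0.618).

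**Figure D5:**
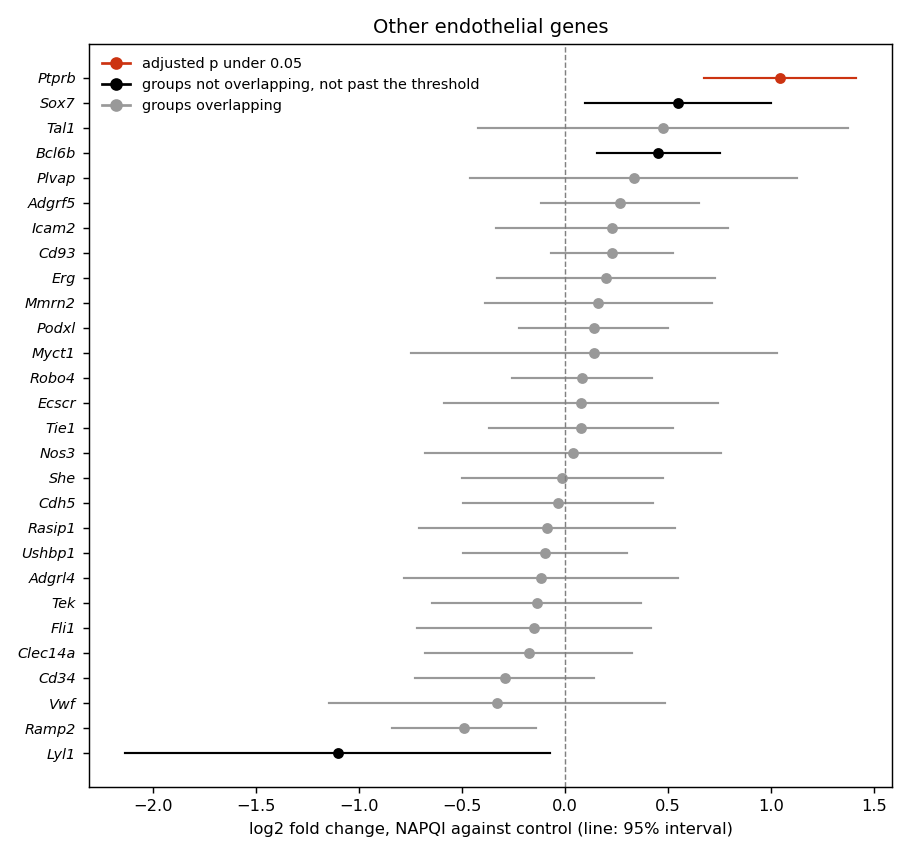
Log2 fold change (NAPQI against control) with 95% interval for the 28 other endothelial genes, ordered by value. Ptprb at 1.04 is the gene past the threshold, and Sox7, Bcl6b and Lyl1 are the others whose groups did not overlap. Of the 28, 3 were without overlap in the higher and 1 in the lower direction. Among all tested genes 14.4% did not overlap (7.26% higher and 7.13% lower with NAPQI).

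VEGF ligands and co-receptors, the partners of Kdr and Flt1, numbered 8 of 8 tested, and 0 passed by edgeR, DESeq2 or limma-voom. Of these, 1 had an unadjusted edgeR p under 0.05, beside 9.24% of all tested genes. Flt4, the receptor of VEGF-C in lymphatic endothelium and also on the lymphatic list, stood at 7.42, 4.66 and 6.72 CPM in controls and at 8.25, 11.3 and 9.25 CPM with NAPQI (log2 fold change 0.61 ± 0.23, edgeR adjusted p = 0.441). Its groups did not overlap. Vegfc, a ligand of Flt4, was at 2.07 ± 0.378 and 2.90 ± 0.826 CPM (edgeR adjusted p = 0.665), and the main ligand Vegfa was at 188 to 202 CPM in controls and 179 to 205 CPM with NAPQI.

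Of 17 genes of endoglin and BMP signalling 15 were tested and 0 passed by edgeR or limma-voom, while DESeq2 called 1, Id2. An unadjusted edgeR p under 0.05 was found for 3 of the 15, beside 9.24% of all tested genes. Id2, an inhibitor of basic helix-loop-helix factors and a target of BMP signals, stood at 188, 159 and 195 CPM in controls and at 135, 137 and 121 CPM with NAPQI (log2 fold change -0.47 ± 0.10, edgeR adjusted p = 0.192). Smad7, the inhibitory SMAD, was at 47.9 ± 7.70 and 35.4 ± 4.16 CPM (edgeR adjusted p = 0.372). For both, all NAPQI libraries lay below all controls. Both genes are also expressed outside endothelium. Of 11 junction partners 0 passed by any of the 3 tools, with 1 at an unadjusted p under 0.05, Ctnnd1, the catenin bound to VE-cadherin, at 67.4 ± 5.09 and 53.5 ± 0.424 CPM (log2 fold change -0.33 ± 0.09, edgeR adjusted p = 0.333). Tjp1, the scaffold ZO-1, was at 207 ± 31.9 and 235 ± 15.3 CPM (edgeR adjusted p = 0.63).

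Of 15 arterial and venous genes 0 passed by any of the 3 tools, with 3 at an unadjusted edgeR p under 0.05 (9.24% of all tested genes). Efnb2, the arterial ephrin, was at 85.9 to 93.8 CPM in controls and 69.5 to 84.0 CPM with NAPQI (edgeR adjusted p = 0.515), and Hey1, a Notch target, at 15.7 to 18.2 and 19.4 to 25.8 CPM (edgeR adjusted p = 0.516). Of 10 tested tip and sprouting genes, on a list also chosen with earlier results known, 1 was called, beside 0.0814% of all tested genes. This was Angpt2, the ligand that loosens vessel support, which rose from 39.7 ± 7.78 to 74.0 ± 5.41 CPM (edgeR adjusted p = 0.0394). It was called in 11 of 16 fits, and not without control replicate 3 (adjusted p = 0.264) or NAPQI replicate 1 (0.275) or 3 (0.187), by limma-voom (0.0562) or with the replicate block (0.0592). Its log2 fold change was 0.79 to 1.07 over the fits, and 0.85 to 0.92 in those without the call. In the authors' deposited table Angpt2 had a log2 fold change of 0.90 and an adjusted p of 1.21e-06. Angpt2 overlaps Mcph1. Ets1, an ETS factor of sprouting vessels, was at 94.2 ± 17.5 and 119 ± 5.51 CPM (edgeR adjusted p = 0.432). Of 5 tested lymphatic genes 0 passed by any of the 3 tools and 1, Flt4, had an unadjusted p under 0.05, while Reln, a secreted glycoprotein, was at 78.3 ± 8.32 and 89.6 ± 2.24 CPM (edgeR adjusted p = 0.549). Lyve1 did not reach the count filter.

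Vessel-support cells were read from 12 pericyte and smooth muscle markers, of which 0 passed by edgeR or limma-voom and 2 had an unadjusted p under 0.05, while DESeq2 called 1, Myh11, with a median log2 fold change of 0.09. Their sum, which includes Myh11, was 393 to 413 CPM in controls and 416 to 493 CPM with NAPQI. The group means of the sum were 404 and 442 CPM, and those of Myh11 alone were 53.9 and 93.4 CPM. The sum is also weighted to the most abundant markers, so it does not show whether the other markers differed. The log2 fold change was positive for 9 of the 12 and negative for 3. Myh11, smooth muscle myosin, had the smallest p, at 70.6, 53.1 and 38.2 CPM in controls and 94.5, 94.3 and 91.4 CPM with NAPQI (log2 fold change 0.79 ± 0.16, edgeR adjusted p = 0.173). Of the 7 lists of further cell types 0 genes passed by any of the 3 tools. An unadjusted edgeR p under 0.05 was found for 3 of 12 macrophage, 4 of 9 stromal and 1 of 10 pregranulosa markers. None of the others had one. The share over all tested genes, to set beside these and the pericyte count, was 9.24%. Within each list, the gene with the smallest p was C1qc for macrophages (log2 fold change -0.57, edgeR adjusted p = 0.406), Gp1ba for platelets (0.48 and 0.568), Hbb-bs for red cells (-1.20 and 0.582), Sycp3 for germ cells (0.20 and 0.649), Wnt4 for pregranulosa cells (0.24 and 0.422), Tcf21 for stroma (-0.35 and 0.452) and Msln for surface epithelium (-0.82 and 0.665). The smallest p does not stand for its list. Gp1ba was the only platelet marker of the 3 tested with a positive value (median -0.14), and of the pregranulosa markers 3 were positive and 7 negative (median -0.05). Macrophage markers had 1 positive and 11 negative values (median -0.32), erythroid markers 0 and 6 (-0.98), stromal markers 2 and 7 (-0.19), surface epithelium markers 2 and 4 (-0.12), and germ cell markers 7 and 2 (0.06).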

How the data were processed

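RNA sequencing measured transcripts in 3 control and 3 NAPQI libraries, grouped by their titles. The authors deposited raw counts of reads for each gene. Their FPKM values, deposited in the same table, equalled each count divided by gene length and by the library's counted reads. From the authors' deposited comparison only the log2 fold change and the p-value columns of the members, Ptprb and Angpt2 were read. The submitters' processing notes name FastQC 0.11.8, HISAT2 2.0.5, HTSeq 0.9.1 and GRCm39; no settings are given.

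The comparison was fitted by edgeR 4.0.16 under R 4.3.3, using filterByExpr with a minimum count of 10, TMM scaling, and the two-sided quasi-likelihood F-test over all tested genes adjusted by the Benjamini-Hochberg method, called under 0.05. Each log2 fold change is given ± its standard error, and intervals are 95% intervals of the fit, not adjusted over genes. A rank test of 3 against 3 libraries cannot give a two-sided p under 0.1. Alternatives were 3 other scalings, 2 other filters, DESeq2 1.42.0, limma-voom (limma 3.58.1), the replicate number as a block, a lowess length correction (span 0.3), and each library left out. Members, lists and tests were chosen with earlier results of these data known. Named genes were the members, list genes past the threshold, the 6 other endothelial genes with the smallest p, the 2 (pathway lists) or 1 (cell type lists) with the smallest p elsewhere, and the 5 most correlated genes; Vegfa and the ratios between genes were added after their values were seen. No 2 libraries of a group agreed within sampling noise. The fits were tested on simulated counts. Figures used Python 3.11.15 and matplotlib 3.10.9.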

Additional observations from a re-analysis of the deposited data

How the results depend on the processing

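No member was called in any of the 15 alternatives, and the smallest adjusted p was 0.137. Of 150 member values under alternatives 143 kept their direction. The 7 that turned all came from leaving out a library: Flt1 at 0.31 without control replicate 3 and 0.06 without NAPQI replicate 3, with -0.37 as its lowest; Egfl7 at -0.10 without control replicate 2, with 0.47 as its highest; Cldn5 at 0.19 without control replicate 3, with -0.35 as its lowest; and Eng at 0.05, 0.01 and 0.05 without control replicate 1, control replicate 3 and NAPQI replicate 3, with -0.23 as its lowest. With a library left out, the median of the members ran from -0.16 to 0.25, the ratio of their summed CPM from 0.925 to 1.1, the count of members without overlap from 1 to 3 (19% to 32.5% of all tested genes, against 14.4% with all libraries), and the median of the other endothelial genes from -0.09 to 0.17. Of the other endothelial genes 0 were called by limma-voom, with the length trend removed or with the replicate block, and 0 to 1 with a library left out. Over all genes, 12 calls became 48 with no low-count filter, 75 by DESeq2, 1 by limma-voom, 1 with the replicate block and 1 to 58 with a library left out. The cause of these shifts was not tested. Same-numbered libraries had correlations of deviations from the group means of 0.061, -0.178 and -0.0513, and differently numbered ones -0.178 to 0.212. With 3 libraries per group, these values cannot settle whether the numbers pair the samples. Single libraries held as few as 27 reads of Sox17 and 45 of Flt1; the part of depth in their spread was not tested.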
